A study of Mus musculus with 24 samples.

Results

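The genes described are 10 negative regulators of RAS-ERK signalling: 6 dual-specificity phosphatases (Dusp1, Dusp4, Dusp5, Dusp6, Dusp7 and Dusp14), 2 Sprouty genes (Spry2 and Spry4) and 2 Sprouty-related genes (Spred1 and Spred2). They were grouped by family, and the choice was made with earlier results of these data known. They are 10 of the 55177 genes to which the transcripts of the deposited tables were assigned. RNA was sequenced from primary neurons grown from the cortex of mouse embryos at embryonic day 16.5, and the labels' protocols treat the cortex of 1 embryo as a biological replicate. Cultures of every group were silenced overnight with 1 µM tetrodotoxin, a sodium channel blocker, and 100 µM D-AP5, an NMDA receptor blocker. Resting cultures were then harvested, and depolarized cultures received 50 mM KCl for 30 min. After 7 days in vitro (DIV7) the neurons, labelled wild type and with no construct named, were given 0.1% DMSO in both states, and gave 2 resting and 2 KCl libraries of poly(A)-selected RNA. After 18 days in vitro (DIV18) libraries were made from RNA depleted of ribosomal RNA. They came from neurons with a non-targeting guide RNA (NT; 2 rest, 2 KCl) or a CRISPR knockout of Smarcc2 (KO). KO neurons received an empty vector (3 rest, 3 KCl), wild-type Smarcc2 (WT, which below always means this addback; 2 rest, 3 KCl) or Smarcc2 in which 1 serine was replaced by glutamate (S586E; 3 rest only) or by alanine (S586A; 2 KCl only). Smarcc2 codes for a core protein of the BAF family of chromatin remodellers. Culture age, RNA selection, guide RNA and DMSO all differ between DIV7 and DIV18 and cannot be told apart.

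Growth factor receptors and calcium entry load RAS with GTP, and RAS-GTP starts the phosphorylation relay from RAF to MEK to ERK. Dual-specificity MAP kinase phosphatases remove phosphate from both the threonine and the tyrosine of the kinase activation loop. Dusp1, Dusp4 and Dusp5 act mainly in the nucleus, Dusp6 and Dusp7 are cytoplasmic and prefer ERK, and Dusp14 is a small atypical member without the usual kinase-binding domain. Sprouty proteins act upstream, between receptor and RAF, and Spred proteins carry the RAS GTPase-activating protein neurofibromin (Nf1) to the membrane. Several of these genes are themselves transcribed in response to ERK or calcium signalling, so that they act as feedback inhibitors.

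Each DIV7 library held 24536056 to 30135576 estimated counts and each DIV18 library 14510199 to 24024959, and all 10 genes passed the low-count filter in every fit. Smarcc2 stood at 237 to 283 CPM (counts scaled to a common library size with TMM factors) in the 4 NT libraries and at 47.1 to 64.1 in the 6 KO libraries with vector. It stood at 737 to 1340 in the 10 libraries with an added-back Smarcc2, so each library matched its label as NT, vector or addback. The addbacks were not at 1 level. At rest S586E libraries read 1164 to 1276 and WT libraries 756 and 816. Under KCl S586A libraries read 1303 and 1340 and WT libraries 737 to 1089. The substitutions themselves cannot be read from counts. Fos, an immediate early transcription factor gene, read 2.75 to 8.34 CPM in the 12 resting libraries, 598 and 618 in the DIV7 KCl libraries and 32.7 to 197 in the 10 DIV18 KCl libraries. Among the DIV18 KCl libraries 3 had less Fos than the rest of their group: NT replicate 2 (38.5), KO with vector replicate 3 (51.2) and KO with WT replicate 3 (32.7). Npas4, an activity-induced transcription factor gene, was lowest in its group in the same 3 libraries, at 13.1, 25.6 and 16.8 CPM. Neuronal markers (9 genes) summed to 3984 to 6121 CPM in all libraries. Sums of other marker lists stand beside the comparisons, though not for every list.

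At rest the 10 genes differed in level, compared here in TPM, a relative transcript abundance that corrects for transcript length. In the 2 resting DIV7 libraries Spred2 was highest at a mean of 42.9 TPM (39.7 to 46.0), followed by Dusp7 at 30.3 (28.3 to 32.3) and Dusp14 at 20.1 (19.95 to 20.2). Dusp1 at 18.7 TPM, Dusp4 at 18.3, Spry2 at 16.6 and Spred1 at 16.2 came next, and each of these overlapped its neighbour in range. Dusp6 followed at 14.2 TPM, below the range of Spred1, and Dusp5 at 10.9 and Spry4 at 10.1 overlapped at the bottom. In resting NT neurons at DIV18 the order began with Dusp7 at 31.0 TPM, Dusp14 at 22.5 and Spred2 at 16.7, with no overlap between neighbours. It ended with Dusp6 at 4.76 TPM, Dusp4 at 2.65 (2.63 to 2.67) and Spry4 at 1.97 (1.53 to 2.42), again without overlap. The same 2 genes, Dusp4 and then Spry4, were the lowest in each of the 8 DIV18 groups.

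Some of the genes stood at separate levels at the 2 ages, although the libraries were normalised separately for each age and no test was made. The share of all genes with ranges apart between the ages was not computed. Dusp4 read 21.1 to 36.9 CPM in the 4 DIV7 libraries and 3.53 to 10.5 in the 20 DIV18 libraries, and Spry4 read 19.1 to 27.7 against 4.12 to 12.85. Dusp14 lay the other way, at 12.7 to 14.1 CPM at DIV7 and 29.3 to 45.2 at DIV18, as did Dusp7, at 38.8 to 47.3 and 69.4 to 101.5. Per length, in TPM, Dusp4 (14.65 to 24.96 at DIV7, 0.954 to 3.58 at DIV18) and Spry4 (7.18 to 10.65, 0.581 to 2.42) were still apart. Dusp14 (19.95 to 22.2, 16.4 to 28.8) and Dusp7 (23.7 to 32.3, 20.85 to 32.2) overlapped in TPM. Spred2 was higher at DIV7 in CPM (79.4 to 104.1 against 36.4 to 76.4) and in TPM (39.7 to 51.2 against 8.42 to 19.5). Spred1 was lower at DIV7 in CPM (43.8 to 52.2 against 57.2 to 93.7) but overlapped in TPM. Spry2 (16.0 to 27.7, 4.66 to 9.53) and Dusp6 (14.05 to 55.0, 2.90 to 11.9) were higher at DIV7 in TPM but overlapped in CPM. In bulk RNA, fewer cells of a type and less RNA per cell cannot be told apart. Astrocyte markers (8 genes) summed to 554 to 659 CPM at DIV7 and 854 to 2018 at DIV18, and their part in these levels was not tested.

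**Figure D1:**
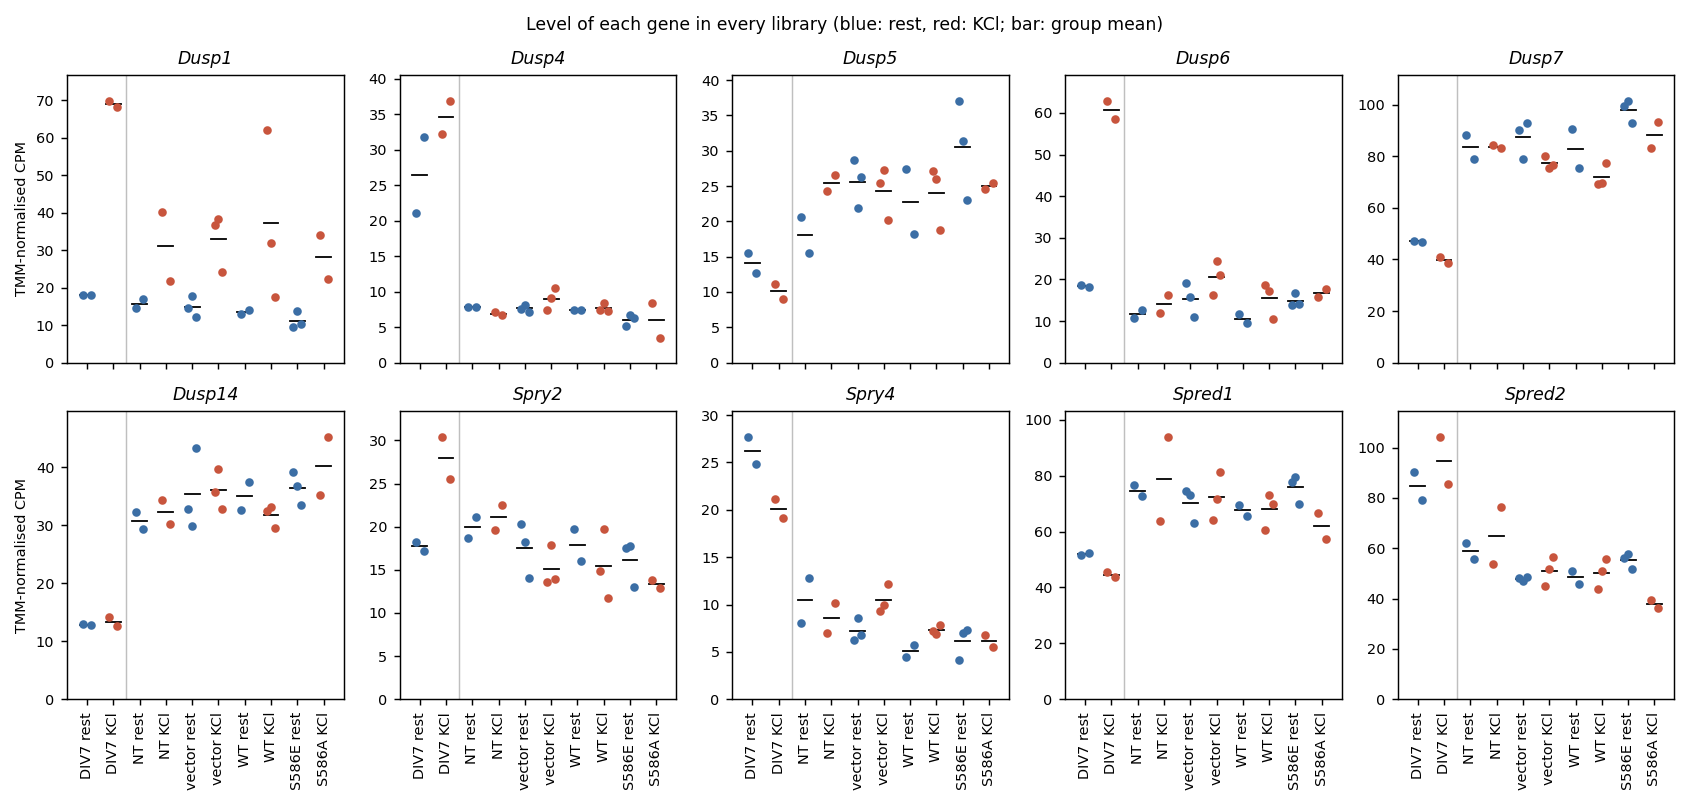
TMM-normalised CPM of the 10 genes (vertical axes, each from 0) in the 24 libraries, arranged by group on the horizontal axis. Each point is 1 library, blue at rest and red after KCl, black bars are group means, and the grey line separates DIV7 from DIV18. Dusp1 rises from 18.1 to above 68 CPM at DIV7 and lies higher under KCl in every construct with both states, whereas Dusp6 reaches 58.6 and 62.9 CPM only in the DIV7 KCl libraries.

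The first comparison asked what 30 min of KCl did at DIV7. Of the 10 genes 6 changed in edgeR's quasi-likelihood test at an adjusted p under 0.05, against 17% of all 19822 genes tested. Dusp1, Dusp6 and Spry2 rose, where 7.34% of all genes rose, and Dusp7, Spry4 and Spred1 fell, where 9.67% fell. The median log2 fold change of the 10 genes was 0.11, beside -0.0014 over all genes tested. With 2 libraries per state the residual degrees of freedom were 2, and the adjusted p-values below come from this fit.

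Dusp1, a nuclear phosphatase that acts on p38, JNK and ERK, stood at 18.1 CPM in both resting libraries and at 69.8 and 68.1 in the KCl libraries. Its log2 fold change was 1.93 (SE 0.0621, adjusted p = 9.08e-06), and the KCl libraries lay 3.81 times as high as rest in mean CPM. Dusp4, a nuclear phosphatase of ERK and JNK, read 21.1 and 31.8 CPM at rest and 32.2 and 36.9 under KCl. The KCl libraries lay above both resting libraries, which differed from each other by more than the state means did, and the log2 fold change of 0.39 (SE 0.175) did not pass the test (adjusted p = 0.180). Dusp5, a nuclear phosphatase specific to ERK, read 15.5 and 12.7 CPM at rest and 11.2 and 9.04 under KCl. The 2 states of Dusp5 did not overlap, but the log2 fold change of -0.48 (SE 0.146) missed the threshold (adjusted p = 0.0649).

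Dusp6, the cytoplasmic ERK phosphatase, stood at 18.6 and 18.1 CPM at rest and at 62.9 and 58.6 under KCl. It rose by a log2 fold change of 1.73 (SE 0.070, adjusted p = 2.46e-05), the second largest change among the 10 genes. Dusp7, its close cytoplasmic relative, moved the other way, from 47.3 and 46.7 CPM to 40.9 and 38.8. Its log2 fold change of -0.24 (SE 0.0616, adjusted p = 0.0410) passed the threshold narrowly. Dusp14 stayed between 12.7 and 14.1 CPM in all 4 libraries, and its log2 difference of 0.06 (SE 0.0985) did not pass the test (adjusted p = 0.729).

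The Sprouty pair split in direction. Spry2 stood at 18.3 and 17.2 CPM at rest and 30.4 and 25.6 under KCl, and it rose by 0.66 on the log2 scale (SE 0.103, adjusted p = 0.00745). Spry4 stood at 27.65 and 24.8 CPM at rest and 21.2 and 19.1 under KCl, a log2 fold change of -0.38 (SE 0.0926, adjusted p = 0.0326). Neither gene's states overlapped. Of the Spred pair, Spred1 went from 51.8 and 52.2 CPM to 45.4 and 43.8, a log2 fold change of -0.22 (SE 0.0576, adjusted p = 0.0410). Spred2 read 90.2 and 79.4 CPM at rest and 104 and 85.7 under KCl, with overlapping states and a log2 fold change of 0.16 (SE 0.101, adjusted p = 0.325).

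Counted by overlap alone, all KCl libraries lay above all resting libraries for 4 of the 10 genes (28.5% of all genes tested) and below them for 4 (30.7% of all genes tested), which leaves 2 that overlapped. The 3 rises held their call in each alternative run on the DIV7 libraries. The 3 small falls did not: DESeq2 gave an adjusted p of 0.154 for Dusp7, 0.0653 for Spry4 and 0.165 for Spred1. Without resting replicate 1 their adjusted p was 0.167, 0.175 and 0.146 in edgeR, and only Dusp1, Dusp6 and Spry2 were called. Marker sums also differed between the states at DIV7. The 8 astrocyte markers summed to 584 and 659 CPM at rest and 554 and 569 under KCl, where Gfap (-0.49) and Slc1a3 (-0.22) fell and Sox9 (0.59) rose (adjusted p = 0.0473, 0.0320 and 0.00958). The 5 oligodendrocyte precursor markers summed to 28.2 and 30.2 CPM at rest and 22.04 and 25.7 under KCl, with Sox10 at 0 in 1 library of each state, and the 8 fibroblast or vessel markers to 7.30 and 7.81 and to 7.83 and 8.82, with no gene called. Of the 9 neuronal markers Tubb3 fell (-0.53, adjusted p = 0.00104) and Map2 rose (0.20, adjusted p = 0.00669). The part of these differences in the results for the 10 genes was not tested.

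The promoter letters of 3 genes are shown because their levels under KCl went different ways at DIV7: Dusp1 and Dusp6 rose, and Dusp5 was lower in both KCl libraries without passing the test. They are from RefSeq on GRCm38.p6, on the strand of the gene, read from 250 bases before the RefSeq start up to the first base that GENCODE places in an exon of the gene. The Dusp1 letters lie inside the gene's GENCODE span, which reaches further upstream than the RefSeq start. Capitals mark matches to the motifs named after the sequences.
Dusp1 (chr17:26508520-26508722, minus strand): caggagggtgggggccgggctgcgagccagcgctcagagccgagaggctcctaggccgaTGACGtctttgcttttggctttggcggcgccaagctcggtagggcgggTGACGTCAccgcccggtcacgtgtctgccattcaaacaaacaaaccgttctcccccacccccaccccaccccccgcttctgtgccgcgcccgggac
Dusp5 (chr19:53528895-53529108, plus strand): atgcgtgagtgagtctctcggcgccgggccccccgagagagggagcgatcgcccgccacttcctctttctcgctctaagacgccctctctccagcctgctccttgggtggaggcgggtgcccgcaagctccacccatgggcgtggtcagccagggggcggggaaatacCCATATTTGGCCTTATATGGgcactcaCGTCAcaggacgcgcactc
Dusp6 (chr10:99262981-99263230, plus strand): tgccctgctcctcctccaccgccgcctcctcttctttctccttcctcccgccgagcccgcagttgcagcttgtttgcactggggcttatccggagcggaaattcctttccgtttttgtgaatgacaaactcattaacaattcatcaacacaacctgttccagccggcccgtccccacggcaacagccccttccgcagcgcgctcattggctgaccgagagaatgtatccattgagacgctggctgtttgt

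Each promoter was searched on both strands in its whole 250-base window. The motifs were the full cAMP response element TGACGTCA, its core TGACG (which the full element contains), the CArG box bound by serum response factor, the AP-1 site TGANTCA, the ETS core CCGGAA and the TATA box letters TATAAA. Of the 10 genes, 8 have an entry in the table, and Dusp4 and Spry4 are not analysed here. The Dusp1 window held the full element once, beginning 143 bases before the start, which 1.55% of all 32851 windows of this length hold. It held the core at 191, 143 and 140 bases before the start, the last of these on the other strand of the full element. The core was found in 3 of the 8 windows (Dusp1, Dusp5 and Spred2) and in 17.8% of all windows. The Dusp5 window held 2 adjoining CArG boxes, beginning 82 and 72 bases before the start, and 1.47% of all windows hold at least 1. The ETS core was found in 1 of the 8 windows, that of Dusp14, and in 12% of all windows. The Dusp14 window lies inside the gene's GENCODE span, as that of Dusp1 does. Its last 223 bases begin at a GENCODE exon of the gene, and the ETS match, 65 bases before the start, is among them. In the Spred2 window the last 67 bases begin at such an exon and hold its core, 51 bases before the start. The AP-1 site (6.75% of all windows) and the TATA letters (12.4%) were in none of the 8, and none of the 6 motifs was found in the Dusp6 window. By composition the windows were 68.4% G or C for Dusp1, 64.0% for Dusp5 and 56.4% for Dusp6, against a median of 52.4% over all windows. A match is a run of letters and was not tested as a binding site.

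At DIV18 the same KCl treatment was compared with rest in 3 constructs. In the fit of all 20 libraries none of the 10 genes passed the test in NT (0.00955% of 20940 genes called), in KO with vector (0.0716%) or in KO with WT (0.043%). At an unadjusted p under 0.05 the edgeR counts were 2, 3 and 3 of the 10, beside 906, 2167 and 1040 of the 20940 genes, and DESeq2 also called none. Few genes of any kind were called here: 2 in NT, 15 with vector and 9 with WT. The median log2 fold change of the 10 genes was 0.08, 0.07 and 0.05 in the 3 constructs, beside -0.0049, -0.0049 and 0.0043 over all genes.

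Dusp1 was higher under KCl in each construct. In NT it read 14.6 and 16.9 CPM at rest and 40.2 and 21.8 under KCl, with vector 14.6, 17.8 and 12.2 at rest and 36.8, 38.2 and 24.25 under KCl. With WT it read 13.05 and 13.9 CPM at rest and 62.0, 32.0 and 17.6 under KCl. In no construct did the states overlap, but the KCl libraries of 1 group differed up to several fold among themselves. The log2 fold change was 0.98 in NT (SE 0.404, adjusted p = 1), 1.15 with vector (SE 0.335, adjusted p = 0.274) and 1.47 with WT (SE 0.384, adjusted p = 0.511) in edgeR. The lowest KCl library of each construct was 1 of the 3 with low Fos and Npas4. Without WT KCl replicate 3 the WT value was 1.80 and passed the test (adjusted p = 0.0494), without NT KCl replicate 2 the NT value was 1.35 (adjusted p = 1), and without KCl replicate 3 the vector value was 1.33 (adjusted p = 0.351). Without the highest KCl library, replicate 1 in both groups, the value was 0.47 in NT and 0.88 with WT. Without the low-count filter edgeR called Dusp1 in all 3 constructs.

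Averaged over the 3 constructs with equal weight, a contrast added after the data were seen, Dusp1 rose by 1.20 on the log2 scale (SE 0.217, adjusted p = 0.0138). It was the only 1 of the 10 genes called, where 0.449% of 20940 genes were. Leaving out each of the 15 libraries in turn gave 1.00 to 1.32, and the call was lost without NT rest replicate 1 or 2, WT rest replicate 1 or 2, or NT KCl replicate 1 (adjusted p 0.0545 to 0.0878). It was also lost when only protein-coding transcripts were counted (log2 fold change 0.92, adjusted p = 0.140). Dusp6 had the next largest averaged value, 0.42 (SE 0.139, adjusted p = 0.346), and the 8 remaining genes lay between -0.13 and 0.26.

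**Figure D2:**
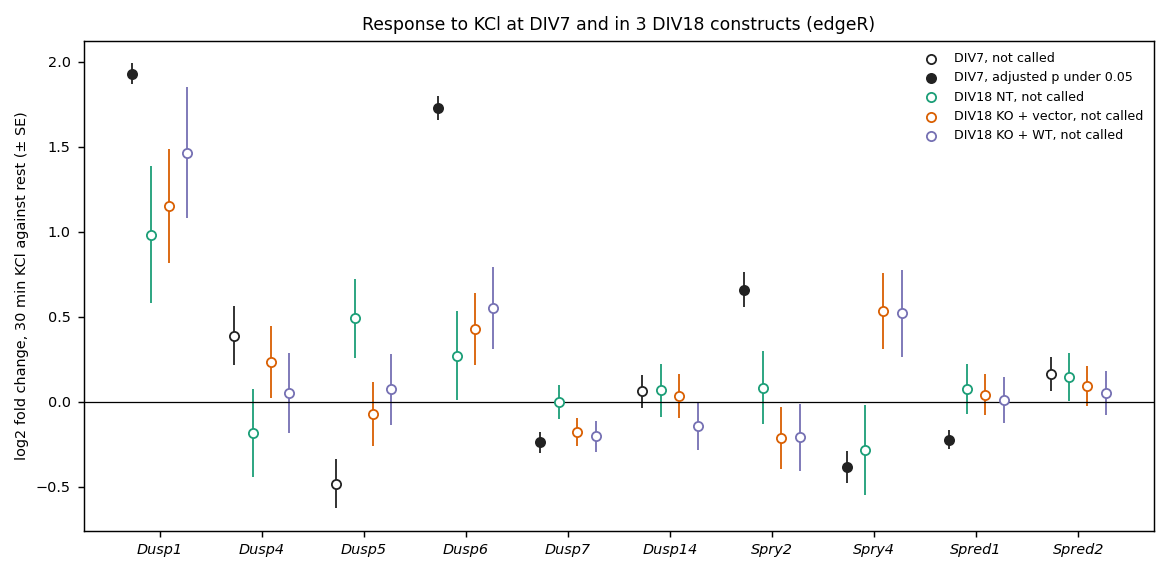
Log2 fold change of each gene (horizontal axis) between 30 min KCl and rest, with bars of 1 SE from edgeR, at DIV7 (black) and in the NT, vector and WT constructs at DIV18 (green, orange, purple). Filled points have an adjusted p under 0.05. Dusp1 is above 0 in all 4 comparisons, and Dusp6 lies at 1.73 at DIV7 but between 0.27 and 0.55 at DIV18.

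Dusp6 overlapped between states in each construct. In NT it read 10.8 and 12.6 CPM at rest and 11.9 and 16.3 under KCl. With vector the libraries were at 19.1, 15.8 and 10.9 CPM at rest and 16.3, 24.5 and 20.99 under KCl, and with WT at 11.6 and 9.49 at rest and 18.7, 17.1 and 10.5 under KCl. The log2 differences of 0.27 (SE 0.263), 0.43 (SE 0.213) and 0.55 (SE 0.243) had adjusted p-values of 1, 0.501 and 0.977. WT KCl replicate 3, low in Fos, was also the lowest Dusp6 library of its KCl group, whereas in NT the library low in Fos had the higher Dusp6.

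Spry4 was above rest in every KCl library of KO neurons with vector (6.30, 8.55 and 6.75 CPM at rest, 9.27, 9.96 and 12.2 under KCl). With WT it read 4.41 and 5.74 CPM at rest and 7.17, 6.84 and 7.83 under KCl. In NT the states overlapped, at 8.07 and 12.85 CPM and at 7.01 and 10.2. None of these passed the test, with log2 fold changes of 0.54 (SE 0.223, adjusted p = 0.413), 0.52 (SE 0.256, adjusted p = 0.977) and -0.28 (SE 0.267, adjusted p = 1). Dusp5 was above rest in both NT KCl libraries (20.6 and 15.5 CPM at rest, 24.3 and 26.5 under KCl). Its log2 fold change there was 0.49 (SE 0.230, adjusted p = 1), and its states overlapped with vector and with WT.

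By overlap alone, the KCl libraries lay above rest for 2 genes in NT (16.7% of all genes), 2 with vector (8.21%) and 2 with WT (11.3%), and below rest for 1 gene in NT (16.8%), 0 with vector (7.49%) and 0 with WT (10.4%). The genes above rest were Dusp1 and Dusp5 in NT and Dusp1 and Spry4 in both KO constructs, and the gene below rest was Dusp4 in NT, at 7.86 and 7.85 CPM against 7.15 and 6.67. Spry2, called higher at DIV7, had log2 differences of 0.08 (SE 0.216) in NT and -0.21 with vector (SE 0.182) and with WT (SE 0.199), none of which passed the test. Dusp7, Dusp14, Spred1 and Spred2 lay between -0.20 and 0.14 in the 3 constructs.

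Marker sums moved with KCl at DIV18 too, with no marker gene called. In NT the 5 oligodendrocyte precursor markers summed to 72.3 and 112 CPM at rest and 17.9 and 62.5 under KCl, and the 4 proliferation markers to 14.9 and 29.8 and to 3.32 and 20.3. The 8 fibroblast or vessel markers summed to 7.89 and 11.5 CPM at rest and 11.7 and 14.4 under KCl in NT, and the 6 microglia markers to 6.93 and 7.99 and to 8.15 and 8.70. With vector the microglia markers summed to 3.80 to 3.82 CPM at rest and 5.07 to 6.05 under KCl. C1qa was at 0 in all 6 vector libraries. Neuronal markers there summed to 4773 to 5488 CPM at rest and 4397 to 4634 under KCl, and the 5 oligodendrocyte markers to 136 to 141 and to 111 to 131. Their part in the KCl values was not tested.

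The DIV7 and NT responses were set against each other in 1 fit of all 24 libraries. The interaction passed the test for 1 of the 10 genes, Dusp6, against 1.82% of 22459 genes. The Dusp6 response was larger at DIV7 by 1.48 on the log2 scale (SE 0.340, adjusted p = 0.0230 in edgeR, and 0.00121 in DESeq2). That call was lost in 6 of 8 fits with 1 library left out (values from 1.26 to 1.71 over the 8), among them the fits without NT rest replicate 2 (adjusted p = 0.123) and without NT KCl replicate 1 (adjusted p = 0.136). Offsets for effective length also ended it (1.49, adjusted p = 0.146). For Dusp1 the difference of 0.96 (SE 0.531) did not pass the test (adjusted p = 0.543), nor did those of Spry2 (0.59, SE 0.291, adjusted p = 0.463) and Dusp5 (-0.96, SE 0.325, adjusted p = 0.180). The age, the RNA selection and the guide RNA cannot be told apart in these differences.

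The same interaction between constructs at DIV18 was examined to ask whether loss or return of Smarcc2 altered the response. For NT the labels name no vector, so loss of Smarcc2 and the vector cannot be told apart here. The KCl response of KO with vector against NT was called for none of the 10 genes and for 0% of 20940 genes, and that of WT against vector for none and for 0%. At an unadjusted p under 0.05 edgeR gave 1 and 0 of the 10, beside 1845 and 768 of the 20940 genes, and DESeq2 called none in either. For Dusp1 the difference was 0.17 (SE 0.522, adjusted p = 0.954) between vector and NT and 0.31 (SE 0.499, adjusted p = 1) between WT and vector. These errors leave room for differences of about the size of the response itself. The largest value between vector and NT was that of Spry4, at 0.82 (SE 0.348, adjusted p = 0.519).

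Dusp1, Dusp6 and Dusp7 have annotated forms that do not encode protein. The shares of these forms are given as kallisto divided the reads, which is uncertain between overlapping forms. Dusp1 has 6 transcripts in GENCODE M21, of which 3 are protein-coding and 2 are retained-intron forms. Protein-coding forms rose from a mean of 16.9 TPM at rest to 59.6 under KCl at DIV7, and retained-intron forms from 1.47 to 7.60, without a test of either. At DIV18 the retained-intron forms made up 9.46% to 17.9% of Dusp1 TPM in resting NT libraries and 25.0% to 34.5% under KCl. With vector their share was 24.03% to 25.7% at rest and 34.8% to 53.3% under KCl, and with WT 24.6% to 30.9% and 37.2% to 44.5%. In these 3 constructs and at DIV7 (6.80% to 8.93% at rest, 11.2% and 11.4% under KCl) the share was higher in every KCl library than in every resting library of the group. In the groups with 1 state it was 25.5% to 47.9% (S586E, rest) and 34.9% to 52.6% (S586A, KCl). Retained-intron counts were 25.2 to 86.2 per resting library and 82.4 to 554 per KCl library.

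Dusp6 has 4 transcripts, 2 of them protein-coding, and its processed-transcript forms made up 15.9% to 16.3% of its TPM at rest and 27.75% to 31.5% under KCl at DIV7. With vector they held 0% to 20.5% at rest and 34.3% to 53.8% under KCl, and with WT 0% to 25.15% and 35.3% to 61.2%. In NT the ranges overlapped, at 12.5% to 31.9% and 14.8% to 56.2%. By counts the shares were lower. The WT KCl library at 61.2% of TPM held 28.2% of counts in these forms, and the vector KCl library at 53.8% held 22.2%. Processed-transcript counts of Dusp6 were 0 to 31.3 per resting library and 11.9 to 182.5 per KCl library. Protein-coding Dusp6 stood at 11.8 to 12.05 TPM at rest and 35.9 to 37.7 under KCl at DIV7. The Dusp1 gene (17:26505590-26562128, minus strand, GRCm38) shares its span with Ergic1 on the other strand, and Dusp5 (19:53529109-53542431) with the antisense gene AC137853.2. The span of Dusp1 also holds AC122252.4 and AC122252.1 on its own strand. Only whole spans were compared, and whether any exons are shared was not examined. Whether the counting used strand is not given in the sources used here. It is therefore not known if reads of these partners entered the counts of Dusp1 or Dusp5.

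**Figure D3:**
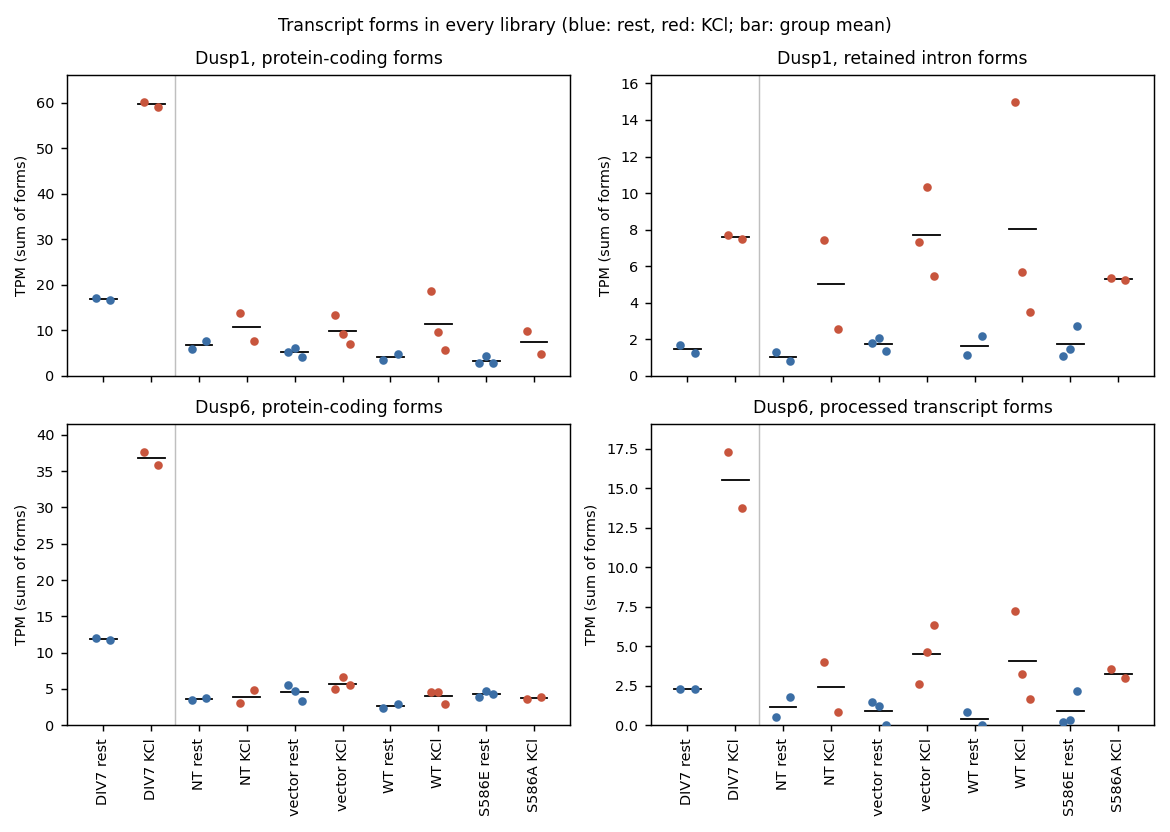
TPM summed over the protein-coding forms (left) and over the retained-intron forms of Dusp1 or the processed-transcript forms of Dusp6 (right), per library on vertical axes from 0, with groups on the horizontal axis, blue at rest, red after KCl and bars at group means. Retained-intron Dusp1 averages 1.03 to 1.75 TPM in the resting groups and 5.005 to 8.05 in the KCl groups, at both ages.

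Among the 20 DIV18 libraries the pattern of each gene was compared with those of 13150 genes by Pearson's r of log2 CPM, as a description, since the libraries share groups and the KCl treatment. The 2 genes most like Dusp1 were Fos (r = 0.940) and Btg2 (r = 0.938), an immediate early gene with antiproliferative function. The libraries fall into a resting and a KCl cluster, and within them r between Dusp1 and Fos was 0.908 over 10 resting libraries and 0.888 over 10 KCl libraries. An exception to the common ordering was S586A KCl replicate 2, with 22.3 CPM of Dusp1 beside 101 of Fos, whereas replicate 1 had 34.1 beside 99.8. For Spry4 the most similar were Sik1, an activity-induced kinase gene (r = 0.845; 0.863 within rest, 0.803 within KCl), and Adgrg1 (0.814). Spred1 was most like Spred2 (r = 0.841; 0.685 within rest, 0.875 within KCl) and next like Olfml3 (0.835), and Spred2 was most like Enah (0.849).

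Dusp7 was most like Tubb3, a neuronal tubulin gene (r = 0.874), and Vapb (0.873), and its r with Dusp1 was -0.678. Spry2 was most like Sox6 and Lrp4 (both 0.858). The nearest genes to Dusp5 were Eif2ak1 (0.869) and Maneal (0.819), to Dusp4 Ahrr (0.825) and Prr18 (0.799), to Dusp6 Vwce (0.839) and Txndc16 (0.744), and to Dusp14 Med10 (0.785) and Camkk1 (0.760). Of the 10 genes, only Dusp1 had Fos among its nearest 2, and r between Dusp1 and Dusp6 was 0.492.

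**Figure D4:**
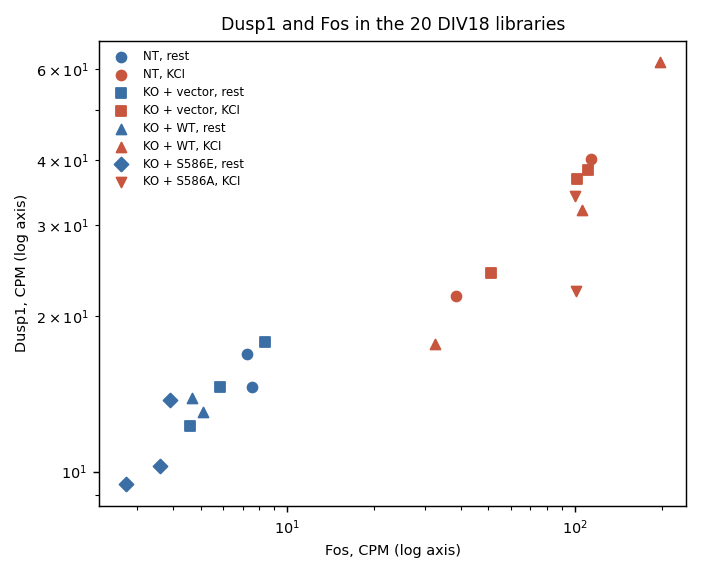
Dusp1 against Fos in the 20 DIV18 libraries, in CPM on 2 log axes, with a marker shape per construct, blue at rest and red after KCl. Resting libraries lie at 2.75 to 8.34 CPM of Fos and 9.45 to 17.8 of Dusp1, and KCl libraries at 32.7 to 197 and 17.6 to 62.0, so that the WT library with the lowest KCl-induced Fos touches the resting range of Dusp1.

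Knockout of Smarcc2 was compared with NT in each state. The labels name an empty vector for the KO neurons and none for NT. Loss of Smarcc2 and the vector therefore cannot be told apart in comparisons of vector with NT. None of the 10 genes was called at rest, against 5.9% of 20940 genes, or under KCl, against 2.67%. At an unadjusted p under 0.05 edgeR gave 3 of the 10 in each state, beside 4262 genes at rest and 3466 under KCl of the 20940, and DESeq2 called none. The medians of the 10 log2 values were -0.06 at rest and 0.02 under KCl, beside 0.02 in both states over all genes. These comparisons share their vector and NT libraries with the KCl comparisons above.

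Dusp5 at rest read 20.6 and 15.5 CPM in NT and 28.65, 21.8 and 26.3 with vector, which do not overlap (log2 difference 0.50, SE 0.212, adjusted p = 0.183). Spred2 at rest read 62.1 and 55.6 CPM in NT and 48.2, 47.0 and 48.5 with vector, again without overlap (-0.30, SE 0.128, adjusted p = 0.195). Sets of libraries that do not overlap were common in this comparison, for 16.1% of all genes upward and 18.2% downward. Spry4 at rest read 6.30 to 8.55 CPM with vector against 8.07 and 12.85 in NT (-0.54, SE 0.244, adjusted p = 0.221).

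Under KCl the 2 values for Spred2 in NT lay far apart (53.8 and 76.4 CPM; 45.0, 51.6 and 56.6 with vector). Its log2 difference was -0.35 (SE 0.128, adjusted p = 0.163), and it was -0.58 (adjusted p = 0.0377) without NT KCl replicate 1 but -0.08 (adjusted p = 0.922) without NT KCl replicate 2. Spry2 under KCl read 19.7 and 22.6 CPM in NT and 13.6, 17.9 and 13.9 with vector, without overlap (-0.48, SE 0.199, adjusted p = 0.226), where 18.5% of all genes had all vector libraries below NT. Dusp6 under KCl was 0.54 higher with vector (SE 0.240, adjusted p = 0.262). Dusp1 differed by -0.08 at rest (SE 0.377, adjusted p = 0.938) and 0.09 under KCl (SE 0.361, adjusted p = 0.934), a difference smaller than its standard error in both states.

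Markers of other cells moved with this comparison. The 5 oligodendrocyte precursor markers summed to 72.3 and 112 CPM in resting NT libraries and 7.00 to 24.6 with vector, and to 17.9 and 62.5 against 8.41 to 10.8 under KCl. All 5 had a lower mean with vector in both states, and Sox10 was at 0 in all 3 resting vector libraries. The 4 proliferation markers summed to 14.9 and 29.8 CPM in resting NT libraries and 1.74 to 4.27 with vector, and the 8 astrocyte markers to 1651 and 1827 against 954 to 1405. Under KCl these 2 lists summed to 3.32 and 20.3 against 2.25 to 2.36, and to 1464 and 2018 against 854 to 971. The 6 microglia markers summed to 6.93 and 7.99 CPM in resting NT libraries and 3.80 to 3.82 with vector. Under KCl they summed to 8.15 and 8.70 against 5.07 to 6.05. Neuronal markers under KCl summed to 4998 and 5402 CPM in NT and 4397 to 4634 with vector. The 8 fibroblast or vessel markers there summed to 11.7 and 14.4 against 6.45 to 8.29. The 5 oligodendrocyte markers at rest lay the other way, at 107.6 and 136.1 CPM in NT and 136.2 to 141.3 with vector. The part of these sums in the values of Dusp5, Spred2, Spry2 and Spry4 was not tested.

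Return of wild-type Smarcc2 left no gene of the 10 called against vector, at rest (0.0143% of 20940 genes called) or under KCl (0.00955%), and DESeq2 called none. In edgeR 1 of the 10 had an unadjusted p under 0.05 in each state, beside 2316 genes at rest and 835 under KCl of the 20940. Spry4 was lower with WT than with vector in both states, by -0.50 at rest (SE 0.258, adjusted p = 0.494) and -0.52 under KCl (SE 0.221, adjusted p = 0.999), and neither value passed the test. Under KCl its libraries did not overlap, at 6.84 to 7.83 CPM with WT and 9.27 to 12.2 with vector, as for 5.04% of all genes downward. Dusp6 at rest read 11.6 and 9.49 CPM with WT and 10.9 to 19.1 with vector (-0.54, SE 0.245, adjusted p = 0.429). At rest the 6 microglia markers summed to 6.03 and 8.92 CPM with WT and 3.80 to 3.82 with vector. The 5 oligodendrocyte markers lay the other way, at 105 and 124 CPM with WT and 136 to 141 with vector. The part of these sums in the values for the 10 genes was not tested.

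The serine substitutions were compared with WT in the 1 state each was sampled in. Smarcc2 itself read higher with each substitution than with WT. It stood at 1164 to 1276 CPM with S586E against 756 and 816 with WT at rest. Under KCl it stood at 1303 and 1340 with S586A against 737 to 1089 with WT. The substitution and the level of Smarcc2 therefore cannot be told apart in these comparisons. S586E against WT at rest gave no call among the 10 genes (0% of 20940 genes called in edgeR, 2696 at an unadjusted p under 0.05, and 319 called by DESeq2). S586A against WT under KCl gave none either (0% called, 1824 at an unadjusted p under 0.05, and 19 called by DESeq2). Among the 10 genes 1 and 3 had an unadjusted p under 0.05, and DESeq2 called none. Dusp7 read 99.3, 101.5 and 92.8 CPM with S586E, each above the WT libraries at 90.6 and 75.4 (0.24, SE 0.0925, adjusted p = 0.285). With S586A under KCl it read 83.0 and 93.3 CPM, above 69.4, 69.6 and 77.3 with WT (0.29, SE 0.0919, adjusted p = 0.474). Libraries with all values above WT were seen for 14.9% of all genes with S586E and 11.9% with S586A.

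Spred2 with S586A read 39.5 and 36.4 CPM, below WT at 44.0, 50.9 and 55.8 (-0.41, SE 0.132, adjusted p = 0.483), as did 13.7% of all genes. Dusp6 with S586E read 13.8, 16.7 and 14.2 CPM, above WT at 11.6 and 9.49 (0.50, SE 0.244, adjusted p = 0.397). Dusp1 read 9.45, 13.75 and 10.2 CPM with S586E, which overlaps WT at rest (-0.27, SE 0.383, adjusted p = 0.827). With S586A under KCl it read 34.1 and 22.3 CPM, within the WT range of 17.6 to 62.0 (-0.40, SE 0.363, adjusted p = 0.772). None of these differences passed the test after adjustment over all genes tested. At rest the 8 astrocyte markers summed to 1304 to 1417 CPM with S586E and 1075 and 1256 with WT. The 5 oligodendrocyte markers summed to 131 to 151 against 105 and 124, and the 9 neuronal markers to 5069 to 6121 against 4654 and 5068. The part of these sums in the S586E values was not tested.

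The rest of the pathway was described by lists of related genes. Among 19 ERK-responsive transcription factors and targets at DIV7, 9 rose and 2 fell, with a median log2 fold change of 0.28. Of the rises, Egr3 lost its call in 2 of 10 alternatives and Fosl1 in 4 (adjusted p up to 0.0586 and 0.215). Fos (7.23, SE 0.0799, adjusted p = 4.42e-08), Egr2 (5.32, SE 0.102, adjusted p = 6.11e-07) and Egr1 (5.20, SE 0.0477, adjusted p = 2.39e-08) had the largest rises, all immediate early transcription factors. The falls were Myc (-1.28, adjusted p = 0.000388) and Elk1 (-0.45, adjusted p = 0.00331), which encodes an ETS factor that ERK phosphorylates. Etv4 and Etv5, transcription factors downstream of FGF and ERK, gave -0.08 and 0.28 and did not pass the test (adjusted p = 0.731 and 0.0904).

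Of 27 RAS-ERK cascade genes 2 rose and 2 fell at DIV7, beside 17% of all genes called: the kinase gene Braf (0.41, adjusted p = 0.00182) and the RAS exchange factor gene Sos1 (0.39, adjusted p = 0.00318) rose, and the scaffold gene Ksr2 (-0.47, adjusted p = 0.00278) and the adaptor gene Shc2 (-0.24, adjusted p = 0.0493) fell. The call for Shc2 was lost in 7 of 10 alternatives, with values from -0.33 to -0.05 and an adjusted p up to 0.775, and those for Braf, Sos1 and Ksr2 held in all 10. The ERK gene Mapk3 gave 0.04 and did not pass the test (adjusted p = 0.606). Of 8 RAS GTPase-activating protein genes 3 rose, all by little: Nf1, the partner of Spred proteins (0.25, adjusted p = 0.0150), Rasal2 (0.22, adjusted p = 0.0315) and Dab2ip (0.15, adjusted p = 0.0472). Over all genes 7.34% rose, and each of the 3 calls was lost in some of the 10 alternatives, with an adjusted p up to 0.0865, 0.155 and 0.193.

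Of the 5 remaining classical MAP kinase phosphatase genes only Dusp9, a cytoplasmic ERK phosphatase, changed at DIV7 (2.84, SE 0.468, adjusted p = 0.00877). Dusp2, Dusp8, Dusp10 and Dusp16 lay between -0.17 and 0.02. Of 12 atypical and other Dusp genes 11 were tested and 2 fell, Dusp15 (-0.85, adjusted p = 0.0133) and Dusp12 (-0.58, adjusted p = 0.0120). With protein-coding transcripts only, Dusp12 gave 0.00 (adjusted p = 0.994), and Dusp15 was not called without rest replicate 2 (adjusted p = 0.054). Of the other Sprouty and Spred genes, Spry1 gave -0.52 (SE 0.145, adjusted p = 0.0503), Spred3 gave 0.11 (adjusted p = 0.547), and Spry3 did not pass the low-count filter. Of 14 JNK and p38 cascade genes 13 were tested and 2 fell, Map2k3 (-0.49, adjusted p = 0.0158) and Mapk11 (-0.40, adjusted p = 0.0136), and of 16 receptor tyrosine kinase genes 1, Met, rose (0.40, adjusted p = 0.0216). Mapk11 gave 0.00 (adjusted p = 0.990) with protein-coding transcripts only, Map2k3 lost its call in 4 of 10 alternatives (adjusted p up to 0.0869) and Met in 2 (adjusted p up to 0.0607). The call for Dusp9 held in all 10.

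At DIV18 the calls under KCl were confined to the ERK-responsive list among the 8 pathway lists run: none in NT, Fos, Egr1 and Ier2 with vector, and Fos, Egr1 and Egr2 with WT. With vector Ier2 was lost in 6 of 13 alternatives (adjusted p up to 0.287) and Fos in 1 (adjusted p = 0.0526), and with WT the 3 calls were each lost in 3 of 12 (adjusted p up to 0.319). Averaged over the 3 constructs, Fos rose by 3.90 (SE 0.344, adjusted p = 4.13e-06) and Egr1 by 2.15 (SE 0.176, adjusted p = 2.07e-06), beside 1.20 for Dusp1. The response was larger at DIV7 than in NT for Fos (3.88, adjusted p = 0.0150), Egr1 (3.48, adjusted p = 5.08e-05), Egr2 (3.45, adjusted p = 0.00239), Egr3 (0.91, adjusted p = 0.0497) and Braf (0.60, adjusted p = 0.0395), and lower for Ksr2 (-0.54, adjusted p = 0.0209). Of these, Egr1 and Egr2 held in all 14 alternatives. The others were lost in 5 (Fos, adjusted p up to 0.104), 8 (Egr3, up to 0.587), 9 (Braf, up to 0.408) and 7 (Ksr2, up to 0.172) of them.

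At rest, when KO with vector was set against NT, 5 of 27 cascade genes fell and none rose, beside 5.9% of all genes called: Ksr1 (-0.80, adjusted p = 0.00122), Shc1 (-0.63, adjusted p = 0.0442), Mapk3 (-0.61, adjusted p = 0.00356), Map2k1 (-0.44, adjusted p = 0.0189) and Braf (-0.36, adjusted p = 0.0436). Ksr1 held in all 12 alternatives (adjusted p up to 0.0388). The others were lost in 7 (Shc1, up to 0.331), 1 (Mapk3, 0.122), 3 (Map2k1, up to 0.372) and 7 (Braf, up to 0.44) of them. Of 16 receptor tyrosine kinase genes 3 fell, Pdgfra (-5.18, adjusted p = 0.000953), Erbb3 (-1.86, adjusted p = 0.0385) and Fgfr3 (-1.24, adjusted p = 0.0431). Erbb3 was lost in 5 and Fgfr3 in 6 of 12 alternatives (adjusted p up to 0.476 and 0.44), and Pdgfra in none. Pdgfra is itself 1 of the 5 oligodendrocyte precursor markers above. In the ERK-responsive list Fosl2 rose (0.62, adjusted p = 0.00593) and Ier3 fell (-1.77, adjusted p = 0.00905), and the p38 gene Mapk11 fell (-0.58, adjusted p = 0.0217), calls that were lost in 4, 2 and 3 of 12 alternatives (adjusted p up to 0.0693, 0.28 and 0.3). Under KCl the calls included Rasgrf2, a calcium-regulated RAS exchange factor gene (0.49, adjusted p = 0.0342), Mapk8ip3 (-0.30, adjusted p = 0.0374) and Pdgfra (-3.33, adjusted p = 0.0277), beside 2.67% of all genes called. These 3 were lost in 4, 6 and 4 of 12 alternatives (adjusted p up to 0.331, 0.367 and 0.8). None of the listed phosphatase, Sprouty and Spred genes was called in this knockout comparison in either state.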

How the data were processed

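RNA-seq tables of 24 libraries were used. Per the file headers, each deposited table lists 142552 transcripts with length, effective length, estimated count and TPM. The estimated counts are the authors' kallisto assignments, which need not be whole, and the TPM values, also deposited, are corrected for effective length and scaled to 1 total per library. The submitters' processing notes name kallisto, FastQC and cutadapt. Versions, genome build and annotation are not given in the sources used here. The effective length deposited by the authors served only for length offsets.

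Transcripts were matched to GENCODE M21 (GRCm38): 141429 (99.2%) matched, 98.9% with the same version. The counts of a gene's transcripts were added and rounded to whole numbers. edgeR 4.0.16 in R 4.3.3 was used (quasi-likelihood test, two-sided, TMM, filterByExpr, Benjamini-Hochberg adjustment over all genes tested), with a call at an adjusted p under 0.05. DIV7 was fitted alone (2 residual degrees of freedom, common biological coefficient of variation 6.44%). The 20 DIV18 libraries were fitted in 8 groups (12 degrees of freedom, 14.6%), and all 24 were fitted together for the difference between DIV7 and NT. Standard errors were derived from the F statistic. CPM use TMM factors within each age. A check on simulated counts was run for KCl against rest at DIV7, in NT and with vector, and for KO with vector against NT at rest.

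The genes and lists were chosen with earlier results of these data known. Named genes were the 10 genes, Smarcc2, Fos, Npas4 and Arc, per list and comparison the called genes with the 3 largest rises and falls, and per gene the 2 of highest r (mean of at least 1 CPM, no predicted symbols). Etv4, Etv5, Mapk3, the uncalled phosphatase, Sprouty and Spred genes, and further called genes of a list, were named after their values were seen. Arc rose at DIV7 (log2 fold change 3.23) and in the average of 3 DIV18 constructs (1.94). The labels call the embryos separate replicates, but do not say which cultures share an embryo. p-values therefore measure the spread between these libraries. Under KCl, same-numbered WT and vector libraries deviated together from their group means (correlations 0.106, 0.114 and 0.236). The main fits used no pairing by number, so the p-values of that comparison do not account for it. A replicate block was tried only as an alternative. Each of these was also tried: DESeq2 1.42.0, median-of-ratios size factors, no low-count filter, length offsets, protein-coding transcripts only, only the groups compared, a replicate block and each library left out. A 10 min KCl arm that the design text names is not analysed here, and some genes of the lists are not reported here.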

Additional observations from a re-analysis of the deposited data

Results flagged for a closer look

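The Dusp6 response to KCl was larger at DIV7 than in NT neurons at DIV18 by 1.48 on the log2 scale (adjusted p = 0.0230 in edgeR), which was a test of the difference itself. That call was lost in 6 of 8 fits with 1 library left out and with length offsets (adjusted p = 0.146). For 2 genes all KCl libraries lay on 1 side of rest at DIV7 and on the other side in NT at DIV18, whereas with vector and with WT their states overlapped. For Dusp4 the mean CPM under KCl was 1.31 times that at rest at DIV7 and 0.880 times in NT, and the difference of the responses did not pass the test (0.59, SE 0.347, adjusted p = 0.588). Its ratio was 1.18 with vector and 1.04 with WT. For Dusp5 the ratio was 0.716 at DIV7 and 1.41 in NT, with a difference of -0.96 (SE 0.325, adjusted p = 0.180), and 0.950 with vector and 1.05 with WT. Spry4 was at 0.767 times its resting mean at DIV7, and at 1.45 times in KO neurons with vector and 1.43 times in those with WT, with no overlap between states in any of these 3. The difference between DIV7 and the KO constructs was not tested for Spry4. With 2 or 3 libraries per state, sets of libraries that do not overlap are common, as the shares over all genes in the report show.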

How the results depend on the processing

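Values for the 10 genes were recomputed 1900 times over 140 results. Of these, 1848 stayed on the same side of the threshold, 30 lost a call and 22 gained one. No called value changed sign, and 152 values called in neither fit did. At DIV7 the number of the 10 genes called was 3 with DESeq2, 3 with length offsets and 3 to 5 with 1 library left out (Dusp1, Dusp6 and Spry2 in each). Without the low-count filter it was 1 in NT, 1 with vector and 1 with WT under KCl (Dusp1 each time), 1 for KO against NT at rest (Dusp5), 3 under KCl (Dusp6, Spry2 and Spred2), 3 for DIV7 against NT (Dusp1, Dusp5 and Dusp6) and 2 for the average of 3 constructs (Dusp1 and Dusp6). The cause was not tested. Length offsets gave 0 for DIV7 against NT and 2 for the average (Dusp1 and Dusp7), and protein-coding transcripts alone gave 0 for the average. With 1 library left out the count ran from 0 to 1 for KO with WT under KCl, KO against NT under KCl, DIV7 against NT and the average, and stayed at 0 in the other comparisons. An arm left with 1 library was assumed to vary like the other groups. With protein-coding transcripts only, Dusp12 and Mapk11 at DIV7 went from a fall to 0.00 (adjusted p = 0.994 and 0.990).

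Same-numbered resting and KCl libraries deviated from their group means with correlations of -0.047 to 0.238, and in the 3 vector pairs, at 0.128, 0.069 and 0.238, not every library correlated best with its own number, so the numbers were not taken to pair those samples. Between WT and vector under KCl, where all 3 correlations exceeded 0.1, the block left the count at 0. The replicate block gave 9 of the 10 genes at DIV7 (without Dusp14) and 1 for KO against NT at rest (Dusp5, 0.63, adjusted p = 0.0285), and the block changed the count in no other comparison. Genes called over the whole DIV7 table went from 3371 to 5857 with the block, 2217 with DESeq2, 2333 with length offsets and 1459 without rest replicate 1. At DIV18, with 2 or 3 libraries per group, the standard error of the Dusp1 response was 0.335 to 0.404 per construct. What depth limits was not tested.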
